A study of Rattus norvegicus with 12 samples.

Results

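The 10 genes described here encode chemokines: the CC chemokines Ccl2, Ccl5, Ccl7 and Ccl20, the CXC chemokines Cxcl1, Cxcl2, Cxcl10, Cxcl12 and Cxcl16, and the CX3C chemokine Cx3cl1. The set was drawn up with earlier results of these data known. Its members were looked up by gene symbol among the 22523 probes of a rat expression array, and all 10 of them were found, with 11 probes. 9 of them passed the filter on low signal and were among the 10937 genes tested. Chemokines are small proteins that steer the migration of leukocytes through G protein-coupled receptors, and they are classed by the spacing of their first cysteines. In skin, keratinocytes are a source of several of them after injury, interleukin 1, tumour necrosis factor or ultraviolet light. Most are secreted freely, whereas Cxcl16 and Cx3cl1 are made as membrane-anchored proteins that can be shed.

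The samples were organotypic cultures of REK cells, an established line of rat epidermal keratinocytes, grown on collagen without feeder cells and exposed to air from day 3 on. There were 4 groups of 3 cultures, with letters A to C in the labels: mock-irradiated control without betaine, 10 mM betaine with mock irradiation, 30 mJ/cm2 UVB without betaine, and 10 mM betaine with 30 mJ/cm2 UVB. Betaine, an organic osmolyte, was in the medium for 11 days. Irradiation preceded harvest by 24 h, and cultures were harvested at an age of 2 weeks. All 12 cultures come from 1 cell line, no immune cells were added, and the labels do not say whether cultures of a group were grown in separate experiments, so the p-values cover the spread among these cultures and nothing wider.

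For 8 members the reference table (RefSeq, rat assembly GRCr8) held a window at a start site of the gene, and the 250 bases before that site are used here. Set against the annotated gene spans, the Ccl20 window runs slightly into the gene and the Cx3cl1 window lies wholly within it, while the other 6 end where the gene begins. Their letters were searched on both strands for 3 motifs: the kappaB motif of NF-kappaB, the AP-1 motif TGANTCA, and the interferon response element (GAAA, any pair of bases, then GAAA). 5 of the 8 windows held a kappaB match (Ccl7, Ccl20, Cxcl1, Cxcl2 and Cxcl10), 2 held an AP-1 match (Ccl7 and Cxcl10) and 1 an interferon response element match (Cxcl10). Of all 33469 windows of that length in the table, 6.33 percent held kappaB, 6.34 percent AP-1 and 3.41 percent the interferon response element. A match is a description of letters and does not show that a factor binds.

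The windows of Cxcl10 and Cxcl12 are shown because these genes moved in opposite directions after UVB in the arrays. They were thus picked by their outcome, and a link of motifs to direction was not tested. The Cx3cl1 window held no match, and that gene was higher with UVB averaged over both betaine states. Windows of Ccl7, Ccl20 and Cxcl1 held kappaB matches, and these genes did not pass the main UVB tests below. Ccl2 and Ccl5 had no window. Capitals mark every match. The Cxcl10 window lies at chr14:15988816-15989065 on the plus strand and holds, from 5′ to 3′, the interferon response element, a kappaB match, a pair of overlapping kappaB matches on opposite strands, and the AP-1 match. The Cxcl12 window lies at chr4:152060531-152060780 on the plus strand and holds none of the 3 motifs.
Cxcl10: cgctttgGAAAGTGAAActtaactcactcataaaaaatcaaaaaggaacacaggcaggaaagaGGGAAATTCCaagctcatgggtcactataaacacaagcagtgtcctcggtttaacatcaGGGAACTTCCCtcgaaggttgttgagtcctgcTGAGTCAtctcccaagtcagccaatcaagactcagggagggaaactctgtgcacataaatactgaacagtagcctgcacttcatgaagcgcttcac
Cxcl12: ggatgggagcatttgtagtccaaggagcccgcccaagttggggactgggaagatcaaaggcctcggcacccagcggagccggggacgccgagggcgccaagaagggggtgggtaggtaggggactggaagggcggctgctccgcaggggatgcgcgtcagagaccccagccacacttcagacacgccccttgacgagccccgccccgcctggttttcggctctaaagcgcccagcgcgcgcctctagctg

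The kappaB letters of 4 other members are shown with 10 bases on each side, because these genes share the motif and differed in detection. The Cxcl1 stretch lies at chr14:17479385-17479415 and the Cxcl2 stretch at chr14:17467309-17467339, both on the minus strand, and each holds a pair of overlapping matches. The Ccl20 stretch lies at chr9:91837060-91837089 and the Ccl7 stretch at chr10:67514026-67514055, both on the plus strand, with 1 match each.
Cxcl1: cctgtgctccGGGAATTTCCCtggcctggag
Cxcl2: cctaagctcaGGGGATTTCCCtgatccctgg
Ccl20: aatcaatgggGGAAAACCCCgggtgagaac
Ccl7: tcattccaaaGGAAGATCCCgccctaactg

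The arrays resembled each other in overall signal: raw medians ran from 95.9 to 117.7, and 46.0 to 47.8 percent of probes were detected per array, a probe being called detected on an array at a detection p-value under 0.05. Levels below are log2 intensities after background correction and quantile normalization; they serve to compare cultures for 1 probe, not 1 gene with another. Of 10 keratinocyte markers, 7 were matched on the array and all 7 were detected, among them Krt14, Krt1 and Krt10. The leukocyte marker Ptprc was undetected on all 12 arrays, as were Cd4, Cd8a, Itgam and Cd74, while Cd3e and Cd68 were among those detected on at least 3; of 6 fibroblast markers only Col3a1, and of 2 endothelial markers none, reached that number of arrays. Of 3 melanocyte markers Pmel and Mlana did, while Tyr was undetected on all 12; their summed level on the linear scale was 289 to 344 in control, 249 to 303 with betaine, 301 to 363 with UVB and 288 to 307 with betaine + UVB, and its part in the results was not tested.

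Detection separated the members. Ccl2, Ccl20, Cxcl1, Cxcl12, Cxcl16 and Cx3cl1 were detected on all 12 arrays. Cxcl10, the interferon-inducible ligand of CXCR3 on activated T cells, was detected on 0 of 3 control and 0 of 3 betaine arrays, and on all 3 UVB and all 3 betaine + UVB arrays. Ccl5, which attracts T cells and eosinophils, was detected on 1 of 3 control arrays, all 3 betaine arrays, 0 of 3 UVB arrays and all 3 betaine + UVB arrays. Ccl7, a monocyte chemoattractant close to Ccl2, was detected on 2 of 3 control, 0 of 3 betaine, 3 of 3 UVB and 1 of 3 betaine + UVB arrays, with its lowest detection p-value at 0.0182. Cxcl2, a neutrophil attractant, was undetected on all 12 arrays, with raw intensities from 75.4 to 100.3, so it was not tested. A second Cxcl16 probe was also undetected on all 12 arrays, with raw intensities from 68.7 to 99.9, and only the bright probe of Cxcl16 was tested.

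**Figure D1:**
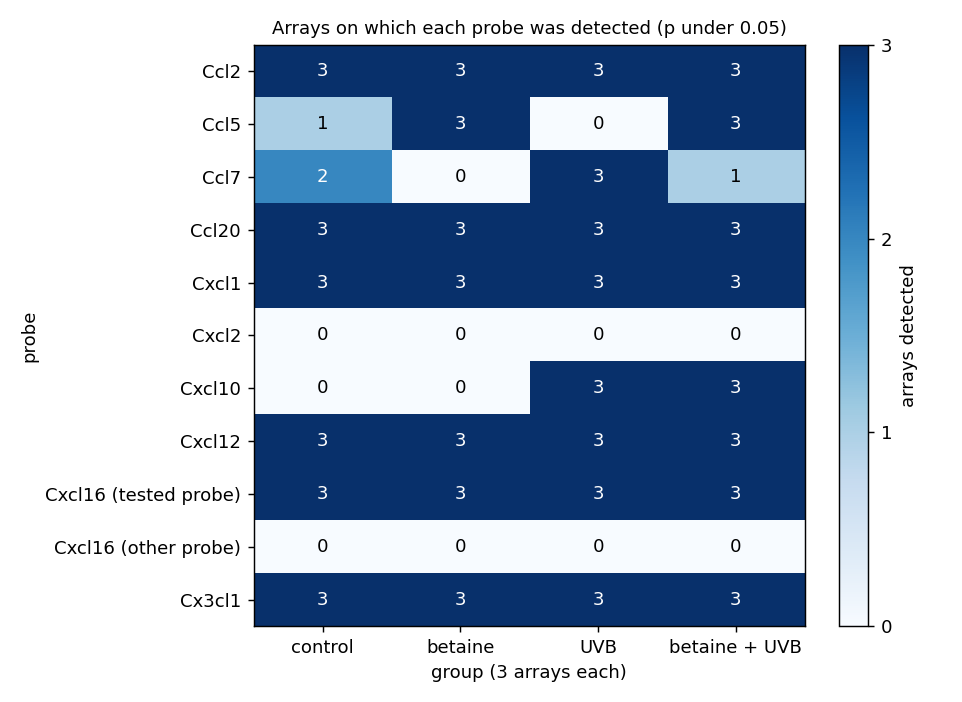
Number of the 3 arrays of each group (columns) on which each of the 11 chemokine probes (rows) was detected at a p-value under 0.05. Cxcl10 goes from 0 to 3 with UVB, Ccl5 is at 3 in both betaine groups and at 1 or 0 without betaine, and Cxcl2 and the other Cxcl16 probe are at 0 in every group.

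UVB vs control asked what irradiation did in cultures grown without betaine. Ccl2 and Cxcl10 rose and Cxcl12 fell, 3 of the 9 tested members, beside 4.96 percent of all tested genes. Cxcl10 passed the filter on low signal only through the irradiated cultures, where it is high, and Ccl5 only through the betaine cultures, so counts that include them describe these genes and support nothing further. Changes are model estimates from limma with their standard errors over 3 cultures per group, and p-values are adjusted over all tested genes by Benjamini-Hochberg. Less RNA per cell and fewer cells of a type cannot be told apart in whole cultures. The median change of the 9 members, Cxcl10 and Ccl5 among them, was 0.38 log2, beside −0.02 over all tested genes, and it too is only a description. That median is the value of Ccl20 (adjusted p = 0.509 in limma), which was 0.07 without UVB C. The arrays of the compared groups did not overlap for these 3 members, beside 22.9 percent of all genes.

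Ccl2, the monocyte chemoattractant that acts on CCR2, had levels of 6.36, 6.76 and 6.30 in control cultures A, B and C and 7.73, 7.70 and 9.34 in UVB cultures A, B and C. Every UVB culture lay above every control culture, and UVB C lay far above the other UVB cultures. The rise was 1.78 ± 0.35 log2, 3.43-fold (adjusted p = 0.0123 in limma). Without UVB C it was 1.24 ± 0.18 (adjusted p = 0.0042). The call was lost when only these groups were fitted (adjusted p = 0.0552), as it was with the authors' deposited log2 values, on which the change was 0.75 (adjusted p = 0.0591).

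Cxcl10 had levels of 4.99, 5.36 and 4.94 in the control cultures, all undetected, and 5.89, 6.18 and 6.59 in the UVB cultures, all detected. The groups did not overlap. Since its control level is only a bound, the rise is given as at least 1.55-fold: the UVB mean was set against the lowest detected signal on each control array, or the probe's own signal where higher. The measured means differed by 1.12 ± 0.17 log2 (adjusted p = 0.0022 in limma). On the authors' deposited log2 values the difference was 0.24 (adjusted p = 0.0132).

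Cxcl12, a ligand of CXCR4 and of the scavenger receptor Ackr3, had levels of 10.39, 10.23 and 10.32 in the control cultures and 9.61, 9.62 and 9.75 in the UVB cultures. The UVB cultures lay close together and wholly below the controls. The fall was −0.65 ± 0.09 log2, 1.57-fold (adjusted p = 0.0011 in limma), and it passed in every alternative run, with changes from −0.78 to −0.53.

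The other 6 tested members had no call in UVB vs control. Cxcl1, the rat neutrophil attractant also called CINC-1, had levels of 9.20, 9.53 and 10.73 in the UVB cultures beside 9.52, 8.91 and 9.17 in control, a change of 0.62 ± 0.30 (adjusted p = 0.327). Ccl20, which acts on CCR6 of Langerhans cell precursors and some T cells, had 11.49, 11.95 and 12.65 beside 11.89, 11.47 and 11.60, a change of 0.38 ± 0.26 (adjusted p = 0.509). Cx3cl1, the ligand of CX3CR1, had 9.86, 10.11 and 10.56 beside 9.87, 9.37 and 9.84, a change of 0.48 ± 0.18 (adjusted p = 0.167). For all 3 genes the UVB range overlapped the control range and UVB C was the highest culture. Ccl5 (−0.26 ± 0.10, adjusted p = 0.206), Ccl7 (0.14 ± 0.17, 0.759) and Cxcl16 (0.06 ± 0.08, 0.777) had smaller values; that of Cxcl16 was −0.04 with arrays scaled by their medians.

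**Figure D2:**
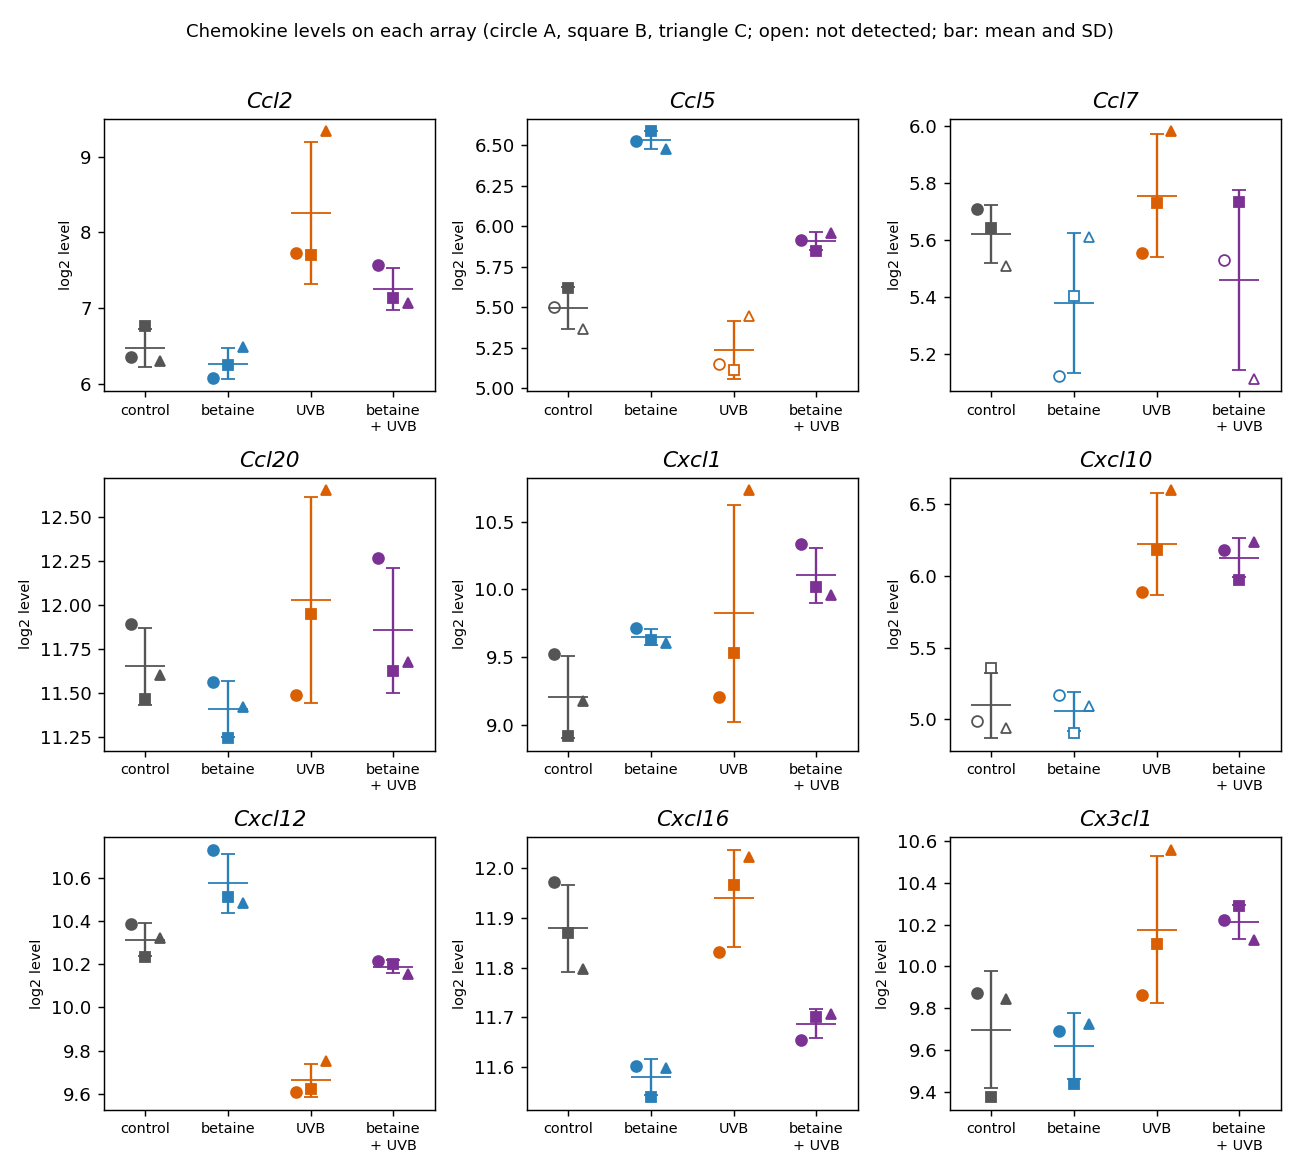
Log2 level (vertical axes, which do not start at 0) of the 9 tested chemokines in each culture, by group; circles, squares and triangles are cultures A, B and C, open symbols were not detected, and bars are the group mean and SD. Cxcl10 sits between 5.89 and 6.59 in the 6 irradiated and detected cultures, Ccl5 between 6.48 and 6.59 with betaine alone, and Cxcl12 between 9.61 and 9.75 with UVB alone.

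UVB C was the highest of the 3 UVB cultures for 9 of the 9 tested members, beside 38.4 percent of all tested genes. Its level lay above the control mean by 2.86 log2 for Ccl2, 1.53 for Cxcl1 and 0.86 for Cx3cl1. The corresponding values were 1.26, 0.00 and 0.17 in UVB A. In UVB B they were 1.22, 0.33 and 0.41. For Cxcl1, UVB A and UVB B lay within the range of the controls or just above it, and UVB C stood well above them. For Il1a, an upstream cytokine of keratinocytes, the order was the other way, with levels of 11.19, 11.10 and 10.70 in UVB A, B and C. The part of this culture's own history in these values was not tested.

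**Figure D3:**
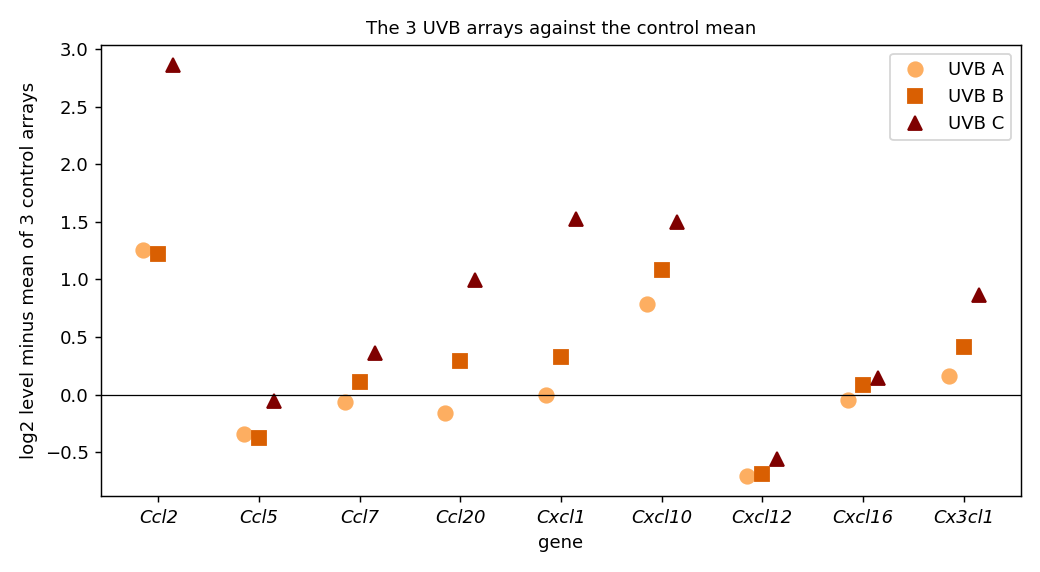
Log2 level in each UVB culture minus the mean of the 3 control cultures (vertical axis), for each tested chemokine (horizontal axis). UVB C is the top symbol for all 9 genes, at 2.86 for Ccl2 and 1.53 for Cxcl1.

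Betaine + UVB vs betaine asked the same of cultures grown with betaine. Cxcl10 rose again, and Ccl5 and Cxcl12 fell, 3 of 9 members beside 6.14 percent of all genes. Cxcl10 had levels of 5.17, 4.90 and 5.09 with betaine, all undetected, and 6.18, 5.97 and 6.23 with betaine + UVB. No culture overlapped, and the rise was at least 1.44-fold (measured difference 1.07 ± 0.17 log2, adjusted p = 0.0021 in limma).

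Cxcl12 had levels of 10.73, 10.51 and 10.48 with betaine and 10.21, 10.20 and 10.15 with betaine + UVB. The irradiated cultures were again lower without overlap, by −0.39 ± 0.09 log2 or 1.31-fold (adjusted p = 0.0220 in limma). That call was lost without betaine A (adjusted p = 0.0886), betaine + UVB A (0.0666), B (0.0663) or C (0.0912), with median scaling (0.0543) and in a model of these groups alone (0.0672).

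Ccl5 had levels of 6.53, 6.59 and 6.48 with betaine and 5.92, 5.85 and 5.96 with betaine + UVB. The cultures of each group lay within about 0.1 log2 of each other, and the fall was −0.62 ± 0.10 log2, 1.54-fold (adjusted p = 0.0027 in limma). It was −0.14 on the authors' deposited log2 values (adjusted p = 0.0281).

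Ccl2 had levels of 6.08, 6.25 and 6.48 with betaine and 7.57, 7.13 and 7.06 with betaine + UVB. The groups did not overlap, and the difference of 0.99 ± 0.35 log2 had no call (adjusted p = 0.133 in limma). The model shares 1 estimate of the spread over all groups. Without UVB C, which is in neither of these groups, the same difference had a standard error of 0.16 and passed (adjusted p = 0.0043 in limma). Cx3cl1 passed in that run too (0.60, adjusted p = 0.0307). Thus 5 of 9 members were called in it, beside 729 of all 10937 tested genes. Ccl2 and Cx3cl1 also passed with array weights and when only these groups were fitted. Cx3cl1 passed also without control B (0.0464) and without background correction (0.0445). With all arrays Cx3cl1 had 0.60 ± 0.18 (adjusted p = 0.0705), Cxcl1 0.45 ± 0.30 (0.453) and Ccl20 0.45 ± 0.26 (0.365). The arrays did not overlap for 8 of the 9 members, all but Ccl7, beside 27.3 percent of all genes.

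Averaged over both betaine states, UVB raised Ccl2 (1.38 ± 0.25), Cxcl10 (1.10 ± 0.12) and Cx3cl1 (0.54 ± 0.12) and lowered Cxcl12 (−0.52 ± 0.06) and Ccl5 (−0.44 ± 0.07), 5 of 9 members beside 11.2 percent of all genes. Adjusted p-values in limma were 0.0031 for Ccl2, 7.0e-05 for Cxcl10, 0.0146 for Cx3cl1, 1.5e-04 for Cxcl12 and 0.0017 for Ccl5. All 5 passed in every alternative run. Those of Cxcl10 and Ccl5 are measured differences and no estimate of a fold, since Cxcl10 was undetected in both groups without UVB and Ccl5 in the UVB group. Cxcl1 (0.54 ± 0.22, adjusted p = 0.148) and Ccl20 (0.41 ± 0.18, 0.185) had positive values with no call; without UVB A, Cxcl1 had 0.69 and passed (adjusted p = 0.0473).

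Betaine vs control asked what betaine did without irradiation. Ccl5 was the 1 member of 9 that rose, beside 0.896 percent of all genes. Its levels were 5.50, 5.62 and 5.36 in the control cultures, of which only B was detected, and 6.53, 6.59 and 6.48 with betaine, all detected. The betaine cultures lay wholly above the controls, by 1.04 ± 0.10 log2 or 2.05-fold (adjusted p = 0.0012 in limma), a measured difference in which 2 of the 3 control levels are not above background. The rise passed in all alternatives and without any 1 culture, although it was 0.22 on the authors' deposited log2 values (adjusted p = 0.0128) and 0.56 without background correction. The summed level of the 8 leukocyte markers on the array was 351 to 374 in control, 373 to 441 with betaine, 358 to 376 with UVB and 379 to 384 with betaine + UVB on the linear scale; the part of such cells was not tested, and Ptprc, which all leukocytes carry, was undetected throughout.

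Arrays of betaine and control did not overlap for 4 of 9 members, Ccl5, Cxcl1, Cxcl12 and Cxcl16, beside 14.5 percent of all genes. Cxcl16, the ligand of CXCR6, had levels of 11.97, 11.87 and 11.80 in control and 11.60, 11.54 and 11.60 with betaine, lower in all 3 cultures (−0.30 ± 0.08, adjusted p = 0.143 in limma). Cxcl1 had 9.71, 9.63 and 9.61 with betaine, above the 3 controls (0.44 ± 0.30, adjusted p = 0.631). Cxcl12 had 0.26 ± 0.09 (adjusted p = 0.261). Values for Ccl2 (−0.20), Ccl20 (−0.24), Ccl7 (−0.24), Cx3cl1 (−0.08) and Cxcl10 (−0.04) had adjusted p-values from 0.640 to 0.956.

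Betaine + UVB vs UVB gave the betaine difference among irradiated cultures. Ccl5 and Cxcl12 were higher with betaine, 2 of 9 members beside 0.887 percent of all genes. Ccl5 had levels of 5.15, 5.12 and 5.44 with UVB, all undetected, and 5.92, 5.85 and 5.96 with betaine + UVB, all detected, a difference of at least 1.24-fold (measured 0.67 ± 0.10 log2, adjusted p = 0.0110 in limma). The call was lost without UVB A (0.0519), UVB B (0.0573) or betaine + UVB C (0.0708) and with the authors' deposited log2 values, on which the difference was 0.14 (adjusted p = 0.0777). Cxcl12 had 9.61, 9.62 and 9.75 with UVB and 10.21, 10.20 and 10.15 with both, with no overlap (0.53 ± 0.09 log2, 1.44-fold, adjusted p = 0.0163). Its call was lost without UVB A (0.0738), UVB B (0.0867) or any of betaine + UVB A (0.0698), B (0.0782) and C (0.0718).

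Ccl2 was lower in every betaine + UVB culture (7.57, 7.13 and 7.06) than in any UVB culture (7.73, 7.70 and 9.34), with group means of 7.26 ± 0.28 and 8.26 ± 0.94 (SD, n = 3). The difference, with a standard error of 0.35, had no call (adjusted p = 0.199 in limma) and was −0.46 without UVB C (adjusted p = 0.298). Cxcl16 was also lower without overlap, with 11.65, 11.70 and 11.71 beside 11.83, 11.97 and 12.02 (−0.25 ± 0.08, adjusted p = 0.166). In all, 4 of 9 members did not overlap between these groups, beside 28.6 percent of all genes. Cxcl10 was at 6.13 ± 0.14 (SD, n = 3) with betaine + UVB and 6.22 ± 0.36 (SD, n = 3) with UVB, a difference of −0.09 ± 0.17 log2 (adjusted p = 0.822 in limma).

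Averaged over both UVB states, betaine raised Ccl5 by 0.85 ± 0.07 (adjusted p = 1.4e-04 in limma) and Cxcl12 by 0.39 ± 0.06 (0.0064), and lowered Cxcl16 by −0.28 ± 0.06 (0.0225), 3 of 9 members beside 3.25 percent of all genes. The value of Ccl5 is a measured difference and no estimate of a fold, since it was detected on 1 of 3 control and 0 of 3 UVB arrays. The calls of Ccl5 and Cxcl12 passed in every alternative run. Cxcl16 lost its call without UVB B (0.0588), UVB C (0.0544), or betaine + UVB A (0.0605), B (0.0569) or C (0.0580). Cxcl1 had 0.36 ± 0.22 (0.394), and 0.59 without UVB C, where it passed (0.0310). The dim Cxcl16 probe was not above background in any group.

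**Figure D4:**
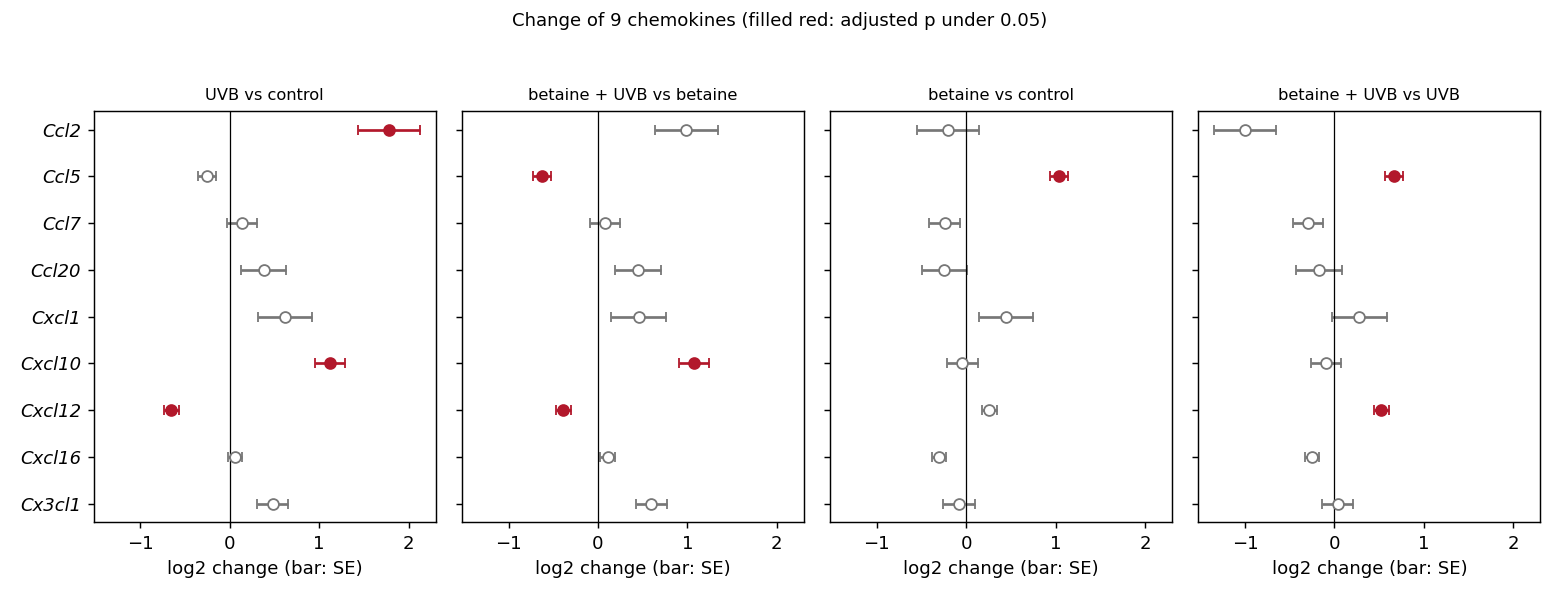
Log2 change with its standard error (horizontal axes) of the 9 tested chemokines (rows) in 4 comparisons; filled red symbols have an adjusted p under 0.05. Cxcl10 is at 1.12 and 1.07 in the UVB comparisons and near 0 in the betaine comparisons, while Ccl5 is at 1.04 and 0.67 in the betaine comparisons.

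The combined treatment was set against control last. Cxcl10 (at least 1.45-fold, measured 1.03 ± 0.17 log2, adjusted p = 0.0038 in limma) and Ccl5 (measured 0.41 ± 0.10, with 1 of 3 control arrays detected, adjusted p = 0.0382) were higher, 2 of 9 members beside 5.17 percent of all genes. Ccl5 lost its call without control A (0.0659) or C (0.152), betaine A (0.0571), UVB A (0.0512), or betaine + UVB A (0.117), B (0.0762) or C (0.141), and its difference was 0.08 on the authors' deposited log2 values (adjusted p = 0.185). It was also lost without background correction (0.108), with median scaling (0.0551), an offset of 50 (0.0727) or the replicate block (0.0685). Cxcl12 lay near control, with −0.13 ± 0.09 (adjusted p = 0.469), although its levels of 10.15 to 10.21 did not overlap with the control levels of 10.23 to 10.39. Ccl2 (0.78 ± 0.35, adjusted p = 0.242) and Cxcl1 (0.90 ± 0.30, 0.122) had positive values and passed only without UVB C (0.0188 and 0.0075), with array weights or in a model of these groups alone. The arrays did not overlap for 7 of 9 members, beside 27.4 percent of all genes. Since these 5 comparisons share groups of cultures, their values are not independent of each other.

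Whether the UVB effect differed with betaine was tested as an interaction, the UVB effect with betaine minus that without. It was called for 0 of 9 members in limma, beside 0.0 percent of all genes, and 1 member, Ccl5, had an unadjusted p under 0.05 (−0.37 ± 0.14, adjusted p = 0.587). Ccl5 was detected on 1 of 3 control and 0 of 3 UVB arrays, so a UVB fall without betaine could not be measured for it. Cxcl12 had 0.27 ± 0.12 (adjusted p = 0.619). Ccl2 had −0.79 ± 0.50 (adjusted p = 0.713), and −0.25 ± 0.25 without UVB C (0.803). The standard errors of the interaction for the 9 members ran from 0.11 to 0.50 log2, and differences of that order were not detectable with 3 cultures per group.

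Most of the other chemokines on the array did not pass the detection filter. Of 26 listed, 22 were matched on the array and 3 passed it, Ccl6, Ccl22 and Cxcl17. Ccl6, a CC chemokine of rodents, rose with betaine from 7.33, 7.39 and 7.60 to 7.95, 8.22 and 8.35 (0.73 ± 0.12, adjusted p = 0.0219 in limma) and fell with UVB in betaine cultures to 7.79, 7.68 and 7.42 (−0.54 ± 0.12, adjusted p = 0.0226). The betaine call was lost without control A (0.102), control B (0.0615), betaine B (0.0868) or betaine C (0.0528) and in a model of these groups alone (0.144). The UVB call was lost without betaine B (0.0806), betaine C (0.0540), betaine + UVB B (0.0580) or betaine + UVB C (0.105) and in a model of these groups alone (0.0791). Averaged over the other treatment, betaine raised Ccl6 by 0.53 ± 0.09 (adjusted p = 0.0081), and UVB lowered it by −0.34 ± 0.09 (0.0258), a call lost without 5 of the 12 arrays. Among the undetected were Cxcl3, Cxcl9 and Cxcl11, of which Cxcl9 and Cxcl11 are CXCR3 ligands like Cxcl10.

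Of 23 chemokine receptors, 19 were matched and 7 tested (Ccr2, Ccr3, Ccr7, Cxcr2, Cxcr3, Cx3cr1 and Ackr3), and 0 were called in limma in any of the 8 comparisons. Ccr6 and Cxcr4, the signalling receptors of Ccl20 and Cxcl12, were undetected on all 12 arrays. Ackr3, which binds Cxcl12 and was named through a synonym, was detected on all 12, with levels from 9.10 to 9.75. The median receptor change was 0.10 log2 in UVB vs control and 0.12 in betaine vs control, beside −0.02 and 0.00 over all genes.

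Pathways upstream of chemokines were described by their counts, to be read beside the share of all genes called, which was 4.96 percent in UVB vs control, 0.896 percent in betaine vs control and at most 11.2 percent in the 8 comparisons. At such shares a count of 0 in a list of this size says little about the pathway. Of 21 NF-kappaB pathway genes 16 were tested, and 0 were called in any of the 8 comparisons in limma, with a median change of −0.04 log2 in UVB vs control. Of 22 interferon pathway genes 14 were tested and 0 were called, with a median of 0.04; Irf1 was detected on all 12 arrays, while Isg15, Ifit2, Ifit3 and Usp18 were undetected on all 12. Of 7 genes of mRNA decay and shedding all 7 were tested, and Zc3h12a, an RNase that degrades inflammatory transcripts, was the 1 called, higher with UVB averaged over betaine states (0.42 ± 0.11, adjusted p = 0.0250), where 11.2 percent of all genes were called. Its call was lost without control C (0.0547), betaine A (0.0558), betaine B (0.0554), betaine + UVB A (0.0607) or betaine + UVB B (0.0554).

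Of 21 inducing cytokines and receptors 12 were tested. Il1a rose in UVB vs control from 8.82, 10.18 and 9.89 to 11.19, 11.10 and 10.70 (1.36 ± 0.29, adjusted p = 0.0199 in limma), with the lowest level in control A. The call was lost without UVB A (0.0747) or UVB B (0.0715) and in a model of these groups alone (0.0628). Averaged over betaine states the Il1a rise was 0.71 ± 0.21 (adjusted p = 0.0479), and it was lost without 9 of the 12 arrays, with median scaling (0.0556), with no detection filter (0.0844) and with the replicate block (0.0509). Il36a, an epidermal cytokine of the interleukin 1 family whose name was reached through a synonym, fell in betaine + UVB vs betaine from 10.84, 11.38 and 10.95 to 9.96, 9.64 and 8.87 (−1.57 ± 0.40, adjusted p = 0.0391), a call lost without 7 of the 12 arrays and with no detection filter (0.0719). Il33, an alarmin, was higher with betaine averaged over UVB states (0.74 ± 0.16, adjusted p = 0.0256), and the cytokine receptor subunit Il17rc was lower with UVB averaged over betaine states (−0.22 ± 0.06, 0.0269); these were lost without 5 and 8 of the 12 arrays. Tnf was detected on 1 array and Il6 on none.

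As a description of likeness, genes from the 3 outside the set with the highest Pearson correlation with each called member over the 12 arrays are given; the arrays share the 4 treatments, so genes with the same response correlate. For Ccl2 they included Fgfbp1 (0.97) and Ckap4 (0.94). For Cxcl10 they were Trip13 (0.95), Tbc1d12 (0.95) and Tubb6 (0.95). Cx3cl1 was most like Nfkbia (0.96), which encodes the inhibitor of NF-kappaB and is itself a target of that factor, followed by A3galt2 (0.96) and Eif4e3 (0.96). Nfkbia had 13.30, 13.41 and 13.70 in the UVB cultures beside 13.37, 13.02 and 13.28 in control, so UVB C was its highest culture too. For Ccl5 they were Id2 (0.95), Eef2k (0.93) and Adgrg2 (0.92), for Cxcl12 Sectm1a (0.96), Pcp4 (0.95) and Ckb (0.95), and for Cxcl16 Fxyd2 (0.95), Nupr1 (0.93) and Adcy2 (0.93).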

How the data were processed

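RNA (400 ng of total RNA per culture) was hybridized to the Illumina RatRef-12 BeadChip, per the labels' protocols. The deposited table gives, per the file headers, a non-normalized signal intensity and a detection p-value for each probe on each of 12 arrays. The authors' deposited processed values were taken as log2 from their range; their normalization is not given in the sources used here, and the submitters' processing notes name R 2.11 and limma without a role. 174 probes lack such a value. Background correction and quantile normalization of these intensities used neqc in limma 3.58.1 (R 4.3.3; offset 16, negative controls inferred from the detection p-values). Probes detected (p under 0.05) on at least 3 arrays were kept, 11255 in all, with 1 probe per gene, that with the highest mean. Names were updated with a rat gene table (GRCr8); all members matched by current symbol. All 12 arrays entered 1 limma model with a mean per group; 8 comparisons were made, each adjusted by Benjamini-Hochberg over 10937 genes, with the threshold at 0.05. The fit was tested on simulated data. The members, lists and tests were chosen with earlier results of these data known. Every member was named; from each list, genes past the threshold were named. Precision is limited by 3 arrays per group. Letters A to C were not used to pair cultures, since the labels do not say what a letter shares. Deviations of same-letter cultures correlated from −0.38 to 0.34 in 18 pairs, 8 of them above 0.1. Those of different letters ran from −0.50 to 0.44 in 36 pairs, 11 of them above 0.1. With 3 arrays per group these values cannot exclude that cultures of a letter share something. A few genes that the naming rules would list are not reported here.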

Additional observations from a re-analysis of the deposited data

How the results depend on the processing

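The 9 members were recomputed under 22 other settings: the authors' deposited values, other background corrections, scalings and detection filters, every probe, a replicate block, array weights, only the compared groups, and leaving out each array. The counts of called members were 3 in UVB vs control and 0 in the interaction without any 1 array, and 1 in betaine vs control. In UVB vs control the Ccl2 call was lost with the authors' values (adjusted p = 0.0591 in limma) and with the compared groups alone (0.0552). The count ran from 0 to 2 in betaine + UVB vs UVB, 2 to 5 in betaine + UVB vs betaine, 1 to 4 in betaine + UVB vs control, 5 to 6 for UVB averaged and 2 to 3 for betaine averaged. With the authors' values it was 2 in betaine vs control (Ccl5 and Cxcl16), beside 87 of 10921 tested genes. It was 1 in betaine + UVB vs UVB, beside 119 genes, and 1 in betaine + UVB vs control, beside 718. With array weights it was 2 in betaine vs control (Ccl5 and Cxcl12), 5 in betaine + UVB vs betaine and 4 in betaine + UVB vs control. In betaine + UVB vs control it was 1 without background correction, 1 with median scaling, 1 with an offset of 50, 1 with the replicate block and 4 with the compared groups alone. Of all 10937 genes, these settings called 649, 624, 647, 539 and 616 in that comparison, in the same order, beside 565 in the main run. The replicate block left out only the Ccl5 call there and changed no other member's call. The cause of these shifts was not tested. Median scaling moved the median of all genes in UVB vs control from −0.02 to −0.11 log2, and 230 of 716 called genes were higher, beside 325 of 542. In betaine vs control 21 of 130 were higher, beside 40 of 98. The background share of called genes also moved with the setting. Over all genes, array weights called 830 in UVB vs control, 430 in betaine vs control, 762 in betaine + UVB vs UVB (beside 97), 2212 in betaine + UVB vs betaine (beside 672), 1562 in betaine + UVB vs control (beside 565), 10 in the interaction, 2383 for UVB averaged (beside 1229) and 1272 for betaine averaged (beside 355). Fitting only the compared groups called 7 in betaine vs control and 365 in UVB vs control. Leaving out 1 array gave 16 to 102 in betaine vs control, 26 to 238 in betaine + UVB vs UVB and 315 to 709 in UVB vs control. Some values changed sign, in every case with no call in either setting. With median scaling Cxcl16 was −0.039 in UVB vs control. With array weights Cxcl10 was 0.11 in betaine vs control, Ccl20 was 0.042 and Cxcl10 0.0088 in betaine + UVB vs UVB, Ccl7 was 0.16 and Cxcl1 0.060 in the interaction, and Cx3cl1 was 0.013 and Cxcl10 0.060 for betaine averaged. Leaving out 1 array at a time gave the following ranges. In betaine vs control they were −0.24 to 0.010 for Cx3cl1 and −0.12 to 0.089 for Cxcl10. In betaine + UVB vs UVB they were −0.44 to 0.14 for Ccl20, −0.12 to 0.23 for Cx3cl1, −0.028 to 0.74 for Cxcl1 and −0.26 to 0.094 for Cxcl10. In betaine + UVB vs betaine Ccl7 ran from −0.058 to 0.25. In betaine + UVB vs control Ccl20 ran from −0.0016 to 0.32 and Ccl7 from −0.30 to 0.013. In the interaction they were −0.20 to 0.38 for Ccl20, −0.19 to 0.12 for Ccl7, −0.040 to 0.31 for Cx3cl1, −0.47 to 0.29 for Cxcl1, −0.22 to 0.14 for Cxcl10 and −0.0068 to 0.089 for Cxcl16. For betaine averaged they were −0.10 to 0.074 for Cx3cl1 and −0.15 to 0.026 for Cxcl10.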
